A study of Mus musculus with 6 samples.

Results

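The interferon-stimulated genes are the genes whose RNA a cell makes in response to interferon, and 48 of them, chosen by symbol as well-known members of that response, were read out of a table of 30445 mouse genes. All 48 had a row, and 47 had enough counts to be tested. The 48 genes, the roles and the other lists below were chosen with earlier results of these data known. Their counts beside the shares of all genes are thus a description. RNA was sequenced from induced macrophages (iMac), a myeloid-like cell complex (MCC) and embryonic fibroblasts (MEF), with 2 libraries in each group and every group labelled wild type. The title of the study names the transcription factor c-Myc as the single factor that turns the fibroblasts into macrophages. The labels name no virus, interferon or other stimulus, and the sources used here do not say how the MCC and the iMac were made or from how many cultures, so the p-values measure the spread between these libraries, which may be technical.

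Interferons are secreted by infected or alarmed cells. Type I interferons bind the receptor built from Ifnar1 and Ifnar2, whose kinases Jak1 and Tyk2 phosphorylate Stat proteins, and a complex of these with Irf9 binds a DNA sequence called the interferon-stimulated response element. Interferon-gamma acts through a second sequence, the gamma-activated site. The induced proteins detect foreign nucleic acids, degrade or block viral RNA, stop virus entry and release, and feed back on the signal. Macrophages are known to hold part of this programme at a steady low level without infection.

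Library totals ran from 34389817 to 39174367 counts. Levels are given as scaled CPM, counts over each library's scaled total in units of 1e6. Myc itself stood at 1022 and 1060 CPM in iMac, 823 and 1164 CPM in MCC, and 70.7 and 63.1 CPM in MEF. The labels held up against a list of 20 macrophage genes, which summed to 29240 and 24940 CPM in iMac, 18790 and 17700 CPM in MCC, and 27.0 and 54.3 CPM in MEF, where Itgam and Marco had no count. A list of 20 collagen and fibroblast genes summed to 70.2 and 73.5 CPM in iMac, 3189 and 643 CPM in MCC, and 51310 and 26660 CPM in MEF, so MCC library 1 held more fibroblast RNA than MCC library 2. The 7 marker genes with rows of the plasmacytoid dendritic cell, a strong interferon source, summed to 265.7 and 237 CPM in iMac, 173 and 174 CPM in MCC, and 182 and 289 CPM in MEF, nearly all of it Tcf4, which was not called. Of these, Siglech stood at 0.627 and 1.12 CPM in iMac and 0.962 and 0.936 CPM in MCC and had no count in MEF. Cd300c also rose in both and had none in MEF, Pacsin1 fell in MCC, and Spib had no count in iMac. In such bulk RNA, a change in the share of cells of a type and a change in RNA per cell cannot be told apart.

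Some of these genes, but not all, share a sequence in their promoters. RefSeq promoters on GRCm38.p6, each with 250 bases before the gene's start and 50 after it, were found for 37 of the 48 genes and searched on both strands for the core of the response element, GAAANNGAAA, which reads TTTCNNTTTC on the other strand. Overlapping matches were counted apart. The core was found for 22 of the 37 genes (59.5%). Of these 22, 17 had a match before the start, and the others only after it. In the same source, 3.99% of the 27025 genes with a promoter and 3.44% of all 32851 promoters held the core. The gamma-activated site, TTCNNNGAA, was found for 9 of the 37 (24.3%), against 9.55% of those 27025 genes. A match is a string of letters and was not tested as a binding site. The windows below, each the match in capitals with its flanks on the gene's own strand, are shown because their genes are described further on, the first 6 with RNA higher in both myeloid groups than in MEF and the last 2 with no call. The Oas1a and Oas1g windows have 33 bases in common from the left end.
Oas1a (chr5:120907526-120907560, minus strand): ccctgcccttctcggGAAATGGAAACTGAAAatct
Oas1g (chr5:120887614-120887646, minus strand): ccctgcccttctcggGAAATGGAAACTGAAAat
Oas3 (chr5:120777710-120777749, minus strand): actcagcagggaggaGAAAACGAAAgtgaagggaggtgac
Trim30a (chr7:104465205-104465244, minus strand): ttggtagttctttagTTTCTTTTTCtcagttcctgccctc
Bst2 (chr8:71537572-71537617, minus strand): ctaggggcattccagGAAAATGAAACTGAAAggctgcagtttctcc
Gbp7 (chr3:142530268-142530307, plus strand): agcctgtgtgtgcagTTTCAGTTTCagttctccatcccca
Isg15 (chr4:156200860-156200911, minus strand): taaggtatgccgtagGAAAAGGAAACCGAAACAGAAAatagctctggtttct
Ifit1 (chr19:34640770-34640828, plus strand): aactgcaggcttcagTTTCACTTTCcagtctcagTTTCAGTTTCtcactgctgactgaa

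The response genes were higher in both myeloid groups than in the fibroblasts, but not all of them, and not by the same amount. Against MEF, 30 of the 47 genes rose in iMac and 1 fell, and 26 rose in MCC and 2 fell, by edgeR's quasi-likelihood test with Benjamini-Hochberg adjustment at 0.05. Of all 18613 genes tested, 25.1% rose and 32.4% fell in iMac (57.6% in either direction), and 23.4% rose and 29.6% fell in MCC (53.0%). Both iMac libraries were above both MEF libraries for 38 of the 47 genes and below them for 5, against 39.1% and 43.5% of all genes tested. Both MCC libraries were above for 31 and below for 7, against 38.2% and 42.4%. The median log2 fold change over the 47 genes was 1.77 in iMac and 1.62 in MCC, beside -0.06 and -0.05 over all genes tested. It ran from -1.71 to 7.53 in iMac and from -1.99 to 7.62 in MCC. Both comparisons use the same MEF libraries. In both, 25 genes rose, Ifitm1 fell, and 14 had no call. The share of all genes tested that rose in both was not counted, and it is at most the 23.4% that rose in MCC. The counts by role below stand beside these same shares. Ifit3, Mx2, Cmpk2, Ifi27 and Ifi47 rose with a call in iMac only, and Oasl1 rose and Isg20 fell with a call in MCC only, which does not show that the groups differed in them.

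These counts rest on 2 libraries a group. Without iMac library 1 the number that rose in iMac was 18, beside 12.5% of all genes then tested, and without iMac library 1 or 2 none fell, while 2 fell without either MCC library. In MCC, 4 fell without MCC library 2, and 1 fell without either MEF or either iMac library. The median in MCC was 0.87 without MCC library 2. How many calls of all genes held under every alternative was not counted, so the next numbers have no share beside them. Of the 31 calls in iMac, 18 held under every alternative tried, and of the 28 calls in MCC also 18 held.

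**Figure D1:**
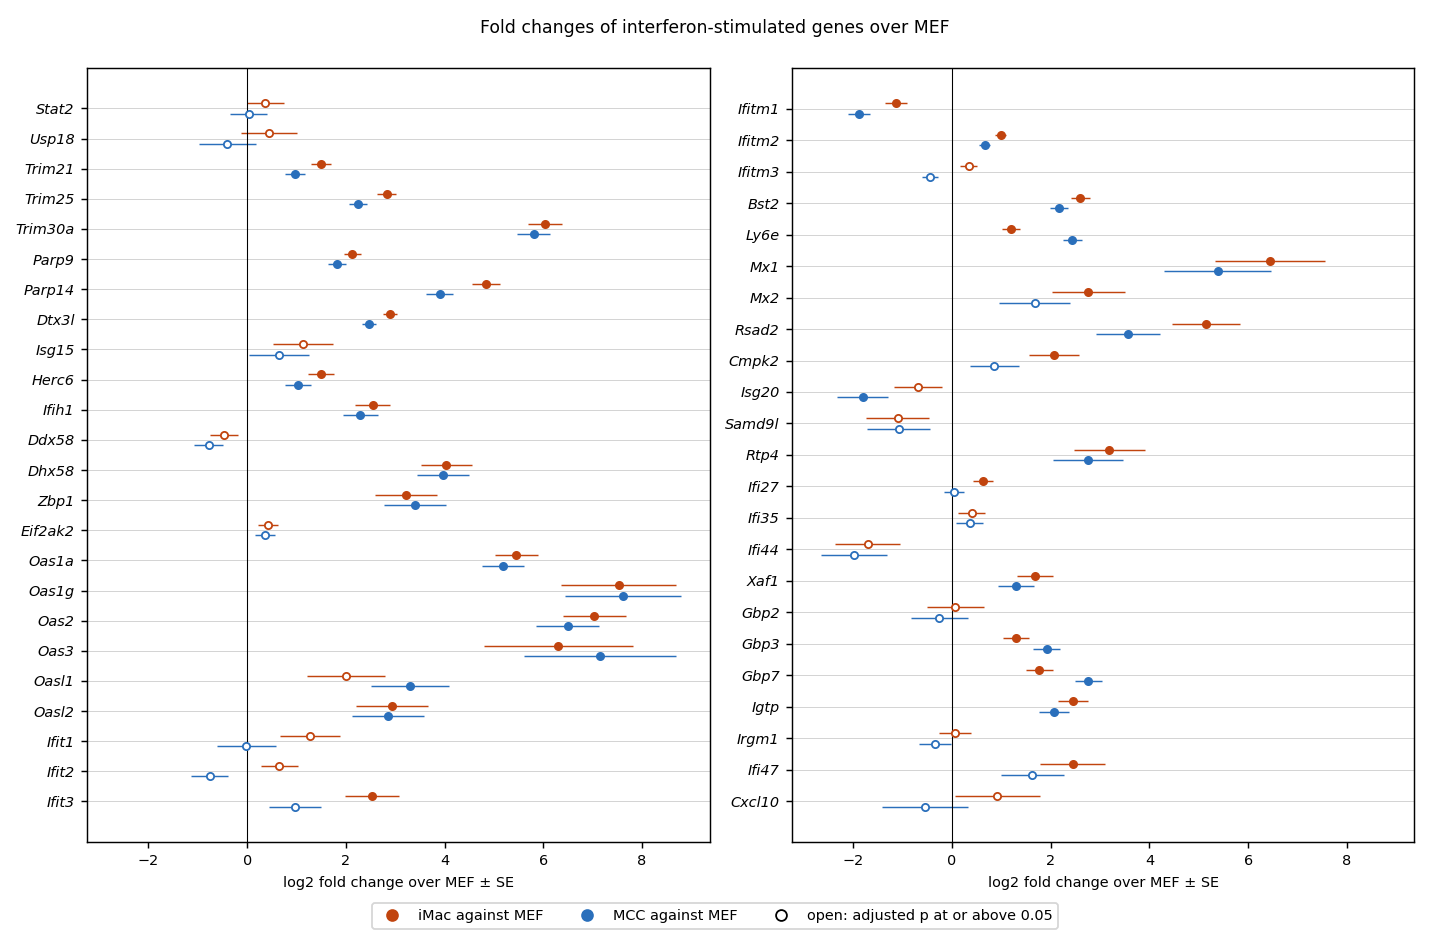
Log2 fold change over MEF of the 47 tested genes, with its standard error as a bar; iMac in orange and MCC in blue, filled where the adjusted p was under 0.05. The widest bars belong to Oas3, Oas1g and Mx1, and the values run from -1.99 for Ifi44 in MCC to 7.62 for Oas1g in MCC.

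Genes of the oligoadenylate synthetase family held the highest fold changes among the 48. Enzymes of this family, switched on by double-stranded RNA, make short oligoadenylates that activate the RNA-cutting enzyme RNase L. All 6 genes of the family among the 48 rose in MCC and 5 of the 6 in iMac. The median log2 fold change of these 6 was 5.88 in iMac and 5.83 in MCC. Their genes lie on mouse chromosome 5, with Oas2 (chr5:120730333-120749853), Oas3 (chr5:120753098-120777661), Oas1g (chr5:120876142-120887613) and Oas1a (chr5:120896256-120907521) in the same cluster in GRCm38. Oas2 stood at 65.0 and 42.6 CPM in iMac, 23.9 and 49.9 CPM in MCC, and 0.244 and 0.567 CPM in MEF. The lowest myeloid library was thus far above the higher MEF library, and the log2 fold change was 7.03 ± 0.65 in iMac and 6.49 ± 0.63 in MCC (SE; adjusted p = 0.00133 and 0.00196). The MEF values of Oas2 came from 9 and 22 counts, and without MEF library 2 the log2 fold change was 7.74 in iMac and 7.26 in MCC. Oas1a stood at 46.2 and 40.7 CPM in iMac, 23.9 and 47.8 CPM in MCC, and 0.867 and 1.11 CPM in MEF. Its log2 fold change was 5.45 ± 0.43 in iMac and 5.18 ± 0.42 in MCC (adjusted p = 0.000891 and 0.00125). Oas1b and Oas1c, tested outside the 48, had smaller changes. Oas1b rose by 2.142 ± 0.585 in iMac (adjusted p = 0.028) and had no call in MCC (1.262 ± 0.577, adjusted p = 0.121). Oas1c rose by 1.696 ± 0.335 in iMac and 1.354 ± 0.333 in MCC (adjusted p = 0.0106 and 0.0228).

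Oas1g and Oas3 were almost unread in MEF, and their fold changes are less certain than their direction. Oas1g stood at 14.8 and 10.6 CPM in iMac, 6.01 and 21.2 CPM in MCC, and 0 and 0.129 CPM in MEF, the last from 5 counts. MCC library 2 was the highest and MCC library 1 the lowest of the 4 myeloid libraries. The log2 fold change was 7.53 ± 1.17 in iMac and 7.62 ± 1.17 in MCC (adjusted p = 0.00545 and 0.00631). Leaving out MCC library 2 gave 6.56 in MCC, leaving out MCC library 1 gave 8.27, and leaving out MEF library 1 gave 6.69 in MCC and 6.60 in iMac. Without MEF library 2 the MEF group had no Oas1g count, and no fold is given. Oas3 stood at 13.8 and 5.46 CPM in iMac, 2.89 and 31.6 CPM in MCC, and 0.0813 and 0.155 CPM in MEF, the MEF values from 3 and 6 counts. The log2 fold change was 6.31 ± 1.51 in iMac and 7.14 ± 1.54 in MCC (adjusted p = 0.0187 and 0.0159). The MCC value became 4.69 when MCC library 2 was left out and 8.03 when MCC library 1 was, and the call ended without MEF library 1 (adjusted p = 0.084), without MEF library 2 (0.0726) and under limma-voom (0.182). In iMac the Oas3 call ended without iMac library 1 (log2 fold change 5.50, adjusted p = 0.0688), without MEF library 1 (0.0953), without MEF library 2 (0.082) and under limma-voom (0.189).

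The 2 synthetase-like genes lay lower. Oasl2 stood at 37.7 and 23.4 CPM in iMac, 11.4 and 46.3 CPM in MCC, and 3.28 and 4.69 CPM in MEF, with a log2 fold change of 2.94 ± 0.73 in iMac and 2.85 ± 0.73 in MCC (adjusted p = 0.0211 and 0.0255). In MCC it became 1.63 when library 2 was left out and 3.55 when library 1 was. Both Oasl2 calls ended without any one of the 4 iMac and MEF libraries, with adjusted p from 0.0523 to 0.117, and that in MCC also under limma-voom (adjusted p = 0.069). Oasl1, known in the mouse to hold back Irf7 translation, stood at 1.25 and 0.874 CPM in iMac, 1.17 and 4.04 CPM in MCC, and 0.163 and 0.361 CPM in MEF. It rose in MCC (log2 fold change 3.29 ± 0.79, adjusted p = 0.0213) and had no call in iMac (2.01 ± 0.79, adjusted p = 0.0796), where it was called with only the 2 groups (adjusted p = 0.0303) and without MCC library 1 (0.0278) or 2 (0.034). The MCC call of Oasl1 ended without MEF library 1 (2.85, adjusted p = 0.0956) or MEF library 2 (3.997, adjusted p = 0.0532), and the value became 2.26 when MCC library 2 was left out and 3.94 when MCC library 1 was. Oas1a and Oas1g are close copies, and the sources used here do not say how reads that match both were counted, so the split between them is uncertain.

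The other antiviral effectors were mixed. Of 7, Mx1, Mx2, Rsad2, Cmpk2 and Rtp4 rose in iMac, Mx1, Rsad2 and Rtp4 rose in MCC, and Isg20 fell in MCC. Mx1, a GTPase that blocks influenza virus in the mouse nucleus, stood at 23.5 and 13.8 CPM in iMac, 2.60 and 15.3 CPM in MCC, and 0.136 and 0.283 CPM in MEF. MCC library 1 lay between the other myeloid libraries and MEF. Mx1 had a log2 fold change of 6.45 ± 1.12 in iMac and 5.38 ± 1.08 in MCC (adjusted p = 0.0073 and 0.013). Leaving out MCC library 2 gave 3.73 in MCC and leaving out MCC library 1 gave 6.17, and the call ended without MEF library 1 (adjusted p = 0.0703), without MEF library 2 (6.02, adjusted p = 0.0534) and under limma-voom (0.0898). In iMac it was 7.04 without MEF library 2.

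Rsad2 encodes viperin, which makes a chain-terminating nucleotide, and its neighbour Cmpk2 a mitochondrial nucleotide kinase. Rsad2 stood at 32.0 and 16.4 CPM in iMac, 4.60 and 11.6 CPM in MCC, and 0.515 and 0.850 CPM in MEF, with no overlap between any pair of groups. Its log2 fold change was 5.14 ± 0.69 in iMac and 3.56 ± 0.65 in MCC (adjusted p = 0.00354 and 0.00998). The MCC value was 2.87 without MCC library 2, and the call ended without MEF library 1 (adjusted p = 0.0537). Cmpk2 stood at 20.6 and 10.1 CPM in iMac, 4.97 and 8.32 CPM in MCC, and 2.68 and 4.64 CPM in MEF. It rose in iMac (log2 fold change 2.07 ± 0.51, adjusted p = 0.0207), a call that ended without iMac library 1 (1.48, adjusted p = 0.0982) or MEF library 1 (adjusted p = 0.091), and had no call in MCC (0.86 ± 0.50, adjusted p = 0.2). Rtp4, a receptor-transporting protein induced by interferon, stood at 33.3 and 17.9 CPM in iMac, 7.98 and 29.9 CPM in MCC, and 2.49 and 3.12 CPM in MEF. It rose by a log2 fold change of 3.19 ± 0.72 in iMac and 2.75 ± 0.71 in MCC (adjusted p = 0.0159 and 0.0264). Leaving out MCC library 2 gave 1.63 in MCC, and leaving out MCC library 1 gave 3.42. The Rtp4 call in MCC ended without MEF library 1 (adjusted p = 0.117) or library 2 (0.0888) and under limma-voom (0.0738), and that in iMac without iMac library 1 (0.0733), MEF library 1 (0.0832) or MEF library 2 (0.0669).

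Mx2 stood at 11.6 and 6.81 CPM in iMac, 1.74 and 6.93 CPM in MCC, and 1.57 and 1.13 CPM in MEF. Library 1 of MCC was near the fibroblasts and library 2 within the iMac range. In MCC the log2 fold change of Mx2 had no call at 1.68 ± 0.72 (adjusted p = 0.103), and it became 2.37 with a call when MCC library 1 was left out (adjusted p = 0.0117) and 0.49 when MCC library 2 was (adjusted p = 0.437). In iMac Mx2 rose by 2.76 ± 0.74 (adjusted p = 0.0263), a call that ended without any one of the iMac or MEF libraries, with adjusted p from 0.0662 to 0.113. Isg20, a nuclease that degrades single-stranded RNA, fell in MCC, where it stood at 1.04 and 0.508 CPM, against 3.12 and 2.34 CPM in MEF (log2 fold change -1.81 ± 0.51, adjusted p = 0.0342). In iMac it stood at 2.18 and 1.21 CPM with no call. The Isg20 call in MCC ended without MCC library 2 (log2 fold change -1.27) and without either MEF or either iMac library, with adjusted p from 0.0552 to 0.118 in those 4, and with only the 2 groups (0.0595), and the value became -2.405 when MCC library 1 was left out. Samd9l, a poxvirus restriction factor, stood at 11.4 and 5.88 CPM in iMac, 3.95 and 13.5 CPM in MCC, and 19.2 and 17.8 CPM in MEF, so that both MEF libraries were above every myeloid library, with no call in either comparison (adjusted p = 0.193 in iMac and 0.203 in MCC). In MCC the fall was called without MCC library 2 (log2 fold change -2.10, adjusted p = 0.025), and in iMac without MCC library 1 or 2 (-1.11 in both, adjusted p = 0.0448 and 0.0464) and with only the 2 groups (adjusted p = 0.0472).

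The IFIT proteins bind viral RNA that lacks the host's cap modification. The 3 genes among the 48 lie together on chromosome 19, and all 3 are among those most used as reporters of an interferon response. Of these 3, none rose in MCC, and Ifit3 alone rose in iMac. Ifit3 stood at 26.0 and 12.7 CPM in iMac, 3.93 and 9.15 CPM in MCC, and 3.25 and 3.45 CPM in MEF. Its log2 fold change was 2.53 ± 0.55 in iMac (adjusted p = 0.014) and, with no call, 0.96 ± 0.53 in MCC (adjusted p = 0.179). The iMac call of Ifit3 ended without iMac library 1 (1.94, adjusted p = 0.0694), MEF library 1 (adjusted p = 0.0701) or MEF library 2 (0.0631). Ifit1, whose promoter window above has both of its matches before the start, stood at 13.6 and 5.07 CPM in iMac, 2.45 and 5.19 CPM in MCC, and 3.39 and 4.35 CPM in MEF. Ifit2 stood at 38.5 and 19.9 CPM in iMac, 8.61 and 13.4 CPM in MCC, and 19.0 and 18.3 CPM in MEF. The MCC libraries of Ifit2 were both below MEF and the iMac libraries both above it, with no call (adjusted p = 0.195 in iMac and 0.146 in MCC). Outside the 48, Ifit1bl1 rose in iMac (log2 fold change 3.36 ± 0.57, adjusted p = 0.00691), with 15 and 7 counts in MEF. In MCC it had no call (1.42 ± 0.57, adjusted p = 0.0861). Ifit3b had no call in iMac (1.47 ± 0.50, adjusted p = 0.0543) or MCC (-0.51 ± 0.51, adjusted p = 0.432).

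The membrane proteins that act on virus entry or release held the highest levels and the clearest fall. Ifitm1, Ifitm2 and Ifitm3 hinder fusion of virus and cell, Bst2 (tetherin) holds budding virus on the cell surface, and Ly6e is a lipid-anchored surface protein that limits coronavirus entry. Bst2 stood at 123 and 99.5 CPM in iMac, 70.6 and 93.6 CPM in MCC, and 18.7 and 18.0 CPM in MEF (log2 fold change 2.60 ± 0.19 in iMac and 2.16 ± 0.19 in MCC, adjusted p = 0.000733 and 0.00141). Ly6e stood at 341 and 281 CPM in iMac, 629 and 842 CPM in MCC, and 128 and 144 CPM in MEF (1.20 ± 0.19 in iMac and 2.44 ± 0.20 in MCC, adjusted p = 0.00568 and 0.00121). Ly6e was 1 of 3 genes of the 47 that were higher in both MCC libraries than in both iMac libraries. Ifitm2 stood at 185 and 154 CPM in iMac, 132 and 137 CPM in MCC, and 85.1 and 85.8 CPM in MEF, rising by a log2 fold change of 0.98 ± 0.11 in iMac and 0.66 ± 0.11 in MCC (adjusted p = 0.0024 and 0.00855). The gene shares 40.9% of its exonic bases with the predicted gene Gm45717, and the strand setting of the counting was not given in the sources used here.

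Ifitm1 fell in both myeloid groups. It stood at 5.11 and 4.98 CPM in iMac, 2.99 and 3.02 CPM in MCC, and 12.4 and 9.76 CPM in MEF, with no overlap between any pair of groups. The log2 fold change was -1.14 ± 0.22 in iMac and -1.88 ± 0.22 in MCC (adjusted p = 0.00964 and 0.00313). The iMac call of Ifitm1 ended without iMac library 1 (-1.14, adjusted p = 0.0693) or iMac library 2 (-1.10, adjusted p = 0.0739). Ifitm3 stood at 393 and 299 CPM in iMac, 186 and 218 CPM in MCC, and 266 and 283 CPM in MEF. Its iMac libraries were the highest and its MCC libraries the lowest, with no call against MEF (adjusted p = 0.143 in iMac and 0.0747 in MCC). DESeq2 called Ifitm3 lower in MCC than in MEF (log2 fold change -0.51, adjusted p = 0.0107).

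Among the genes that signal or set the strength of the response, 6 of 8 rose in both groups, and Trim30a had the highest fold change of the 8. Known in the mouse to dampen Toll-like receptor signalling, it stood at 115 and 88.7 CPM in iMac, 76.0 and 97.6 CPM in MCC, and 1.17 and 1.93 CPM in MEF (log2 fold change 6.03 ± 0.34 in iMac and 5.80 ± 0.34 in MCC, adjusted p = 0.000371 and 0.000508). Parp14, an ADP-ribosyltransferase, stood at 251 and 183 CPM in iMac, 96.8 and 131 CPM in MCC, and 6.59 and 8.63 CPM in MEF (4.84 ± 0.29 in iMac and 3.91 ± 0.27 in MCC). Trim25, the ubiquitin ligase that acts on the RNA sensor RIG-I, stood at 424 and 430 CPM in iMac, 236 and 333 CPM in MCC, and 60.5 and 60.2 CPM in MEF (2.82 ± 0.19 in iMac and 2.24 ± 0.18 in MCC). All 3 rose under every alternative tried. Parp9 and Dtx3l, whose products work as a pair and whose genes overlap on chromosome 16, rose by log2 fold changes of 2.13 ± 0.18 and 2.89 ± 0.14 in iMac and of 1.82 ± 0.17 and 2.47 ± 0.14 in MCC. Trim21, a cytosolic antibody receptor, rose by 1.5 ± 0.21 in iMac and 0.97 ± 0.20 in MCC, the MCC call ending without MEF library 1 (0.92, adjusted p = 0.0587). Stat2, a core part of the signal itself, stood at 59.0 and 45.6 CPM in iMac, 26.5 and 56.0 CPM in MCC, and 36.9 and 44.0 CPM in MEF. Usp18, which takes Isg15 off proteins and shuts the receptor down, stood at 4.09 and 2.93 CPM in iMac, 1.07 and 2.84 CPM in MCC, and 1.84 and 3.32 CPM in MEF. Neither of these 2 had a call in any comparison.

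Of the 5 nucleic acid sensors, 3 rose in both groups. Ifih1 (MDA5, a sensor of long double-stranded RNA) stood at 31.4 and 25.8 CPM in iMac, 16.2 and 31.7 CPM in MCC, and 4.798 and 4.998 CPM in MEF (log2 fold change 2.55 ± 0.36 in iMac and 2.29 ± 0.35 in MCC). Dhx58 (LGP2, a partner of MDA5) stood at 28.0 and 23.2 CPM in iMac, 17.4 and 31.5 CPM in MCC, and 0.949 and 2.16 CPM in MEF (4.03 ± 0.52 in iMac and 3.97 ± 0.52 in MCC, and 4.72 in both without MEF library 2). Zbp1, a sensor of left-handed nucleic acid that can start cell death, rose by 3.22 ± 0.62 in iMac and 3.404 ± 0.63 in MCC. Its MCC value was 2.78 without MCC library 2, and its iMac call ended without iMac library 1 (2.83, adjusted p = 0.0541). Ddx58 (RIG-I) stood at 38.1 and 27.0 CPM in iMac, 20.6 and 32.1 CPM in MCC, and 50.4 and 40.01 CPM in MEF, with all myeloid libraries below both MEF libraries and no call (adjusted p = 0.214 in iMac and 0.0721 in MCC). DESeq2 called Ddx58 lower in MCC (-0.86, adjusted p = 0.0219), and so did the edgeR fit without MCC library 2 (-1.01, adjusted p = 0.0478). Eif2ak2 (PKR, which stops translation) stood at 80.2 and 65.7 CPM in iMac, 57.0 and 82.5 CPM in MCC, and 54.2 and 54.5 CPM in MEF with no call, and was called in MCC without MCC library 1 (0.61, adjusted p = 0.0402).

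Isg15, a ubiquitin-like protein joined to other proteins during the response, had no call, and its promoter window above holds 3 overlapping matches. It stood at 8.45 and 5.04 CPM in iMac, 2.29 and 7.36 CPM in MCC, and 3.12 and 3.04 CPM in MEF. The iMac libraries were both above MEF, and the MCC libraries lay on either side of it. In iMac the rise was called without MCC library 1 (log2 fold change 1.12, adjusted p = 0.0379) or MCC library 2 (1.12, adjusted p = 0.0408) and with only the 2 groups (1.11, adjusted p = 0.0439), and not with all 6 libraries (1.13, adjusted p = 0.167). In MCC the log2 fold change was 1.27 without MCC library 1 (adjusted p = 0.049) and -0.30 without MCC library 2 (adjusted p = 0.59). Herc6, its ligase in the mouse, rose by 1.502 ± 0.26 in iMac and 1.03 ± 0.26 in MCC. The MCC call of Herc6 ended without MCC library 2 or any one of the iMac and MEF libraries, with adjusted p from 0.0518 to 0.0756, and with only the 2 groups (0.0545), and the iMac call without iMac library 1 (adjusted p = 0.053).

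The interferon-inducible GTPases attack microbes inside vacuoles and respond in the mouse mainly to interferon-gamma. Of 6, Gbp3, Gbp7, Igtp and Ifi47 rose in iMac and Gbp3, Gbp7 and Igtp in MCC. Gbp7 stood at 18.1 and 16.2 CPM in iMac, 37.8 and 30.3 CPM in MCC, and 3.90 and 6.16 CPM in MEF (log2 fold change 1.77 ± 0.27 in iMac and 2.76 ± 0.28 in MCC). Gbp3 stood at 6.87 and 5.40 CPM in iMac, 10.2 and 8.59 CPM in MCC, and 2.17 and 2.81 CPM in MEF (1.30 ± 0.26 in iMac and 1.91 ± 0.27 in MCC), and its iMac call ended without iMac library 1 (1.13, adjusted p = 0.0711). Igtp rose by 2.45 ± 0.30 in iMac and 2.06 ± 0.30 in MCC. Ifi47 rose by 2.44 ± 0.65 in iMac, a call that ended without iMac library 1 (2.20, adjusted p = 0.11) or library 2 (2.68, adjusted p = 0.0762), and its value became 3.71 when MEF library 1 was left out and 1.76 when MEF library 2 was. Ifi47 stood at 13.4 and 9.56 CPM in iMac, 5.70 and 7.25 CPM in MCC, and 3.33 and 0.876 CPM in MEF. In MCC its log2 fold change was 1.62 ± 0.64 with no call (adjusted p = 0.0837), and it was called without MEF library 1 (2.89, adjusted p = 0.012) and under limma-voom. Irgm1 stood at 49.7 and 39.7 CPM in iMac, 28.9 and 38.8 CPM in MCC, and 55.0 and 31.0 CPM in MEF, and Gbp2 at 9.14 and 5.58 CPM in iMac, 7.13 and 4.66 CPM in MCC, and 10.5 and 3.63 CPM in MEF. Neither was called, and for both the MEF libraries overlapped those of iMac and of MCC.

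The 2 chemokines that draw T cells through Cxcr3 were low. Cxcl9, a classic interferon-gamma target, had 1 and 1 counts in iMac, 0 and 4 counts in MCC, and 0 and 8 counts in MEF, too few to test. Cxcl10 stood at 4.78 and 1.30 CPM in iMac, 1.69 and 0.508 CPM in MCC, and 1.08 and 2.14 CPM in MEF, with the groups overlapping and no call. Of 4 induced proteins of less defined role, Xaf1, a partner of an apoptosis inhibitor, stood at 45.6 and 31.9 CPM in iMac, 20.1 and 38.9 CPM in MCC, and 12.9 and 11.2 CPM in MEF. It rose by a log2 fold change of 1.69 ± 0.37 in iMac and 1.29 ± 0.37 in MCC (adjusted p = 0.0143 and 0.0341). Its MCC call ended without MCC library 2 (0.86) or any one of the iMac and MEF libraries, with adjusted p from 0.0577 to 0.108, and its iMac call without iMac library 1, MEF library 1 or MEF library 2, with adjusted p from 0.0564 to 0.0766. The MCC adjusted p of Xaf1 was 0.0625 with replicate number as a block and 0.0505 with only the 2 groups. Ifi27, a mitochondrial protein, stood at 52.9 and 58.4 CPM in iMac, 42.0 and 31.4 CPM in MCC, and 40.4 and 31.3 CPM in MEF, and rose in iMac by 0.64 ± 0.20 (adjusted p = 0.0443). That call ended with median-ratio scaling (adjusted p = 0.0702) and without iMac library 1 (0.119), iMac library 2 (0.184) or MEF library 2 (0.23). Ifi44 was below 2 CPM in every library and Ifi35 between 10.2 and 18.7 CPM in all 6, both without a call. DESeq2 (-2.07, adjusted p = 0.0388), limma-voom (-2.12, adjusted p = 0.0372), median-ratio scaling (-2.06, adjusted p = 0.0498) and the fit without MCC library 2 (-2.83, adjusted p = 0.047) called Ifi44 lower in MCC. In iMac Ifi44 was called lower with only the 2 groups (-1.73, adjusted p = 0.0467).

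**Figure D2:**
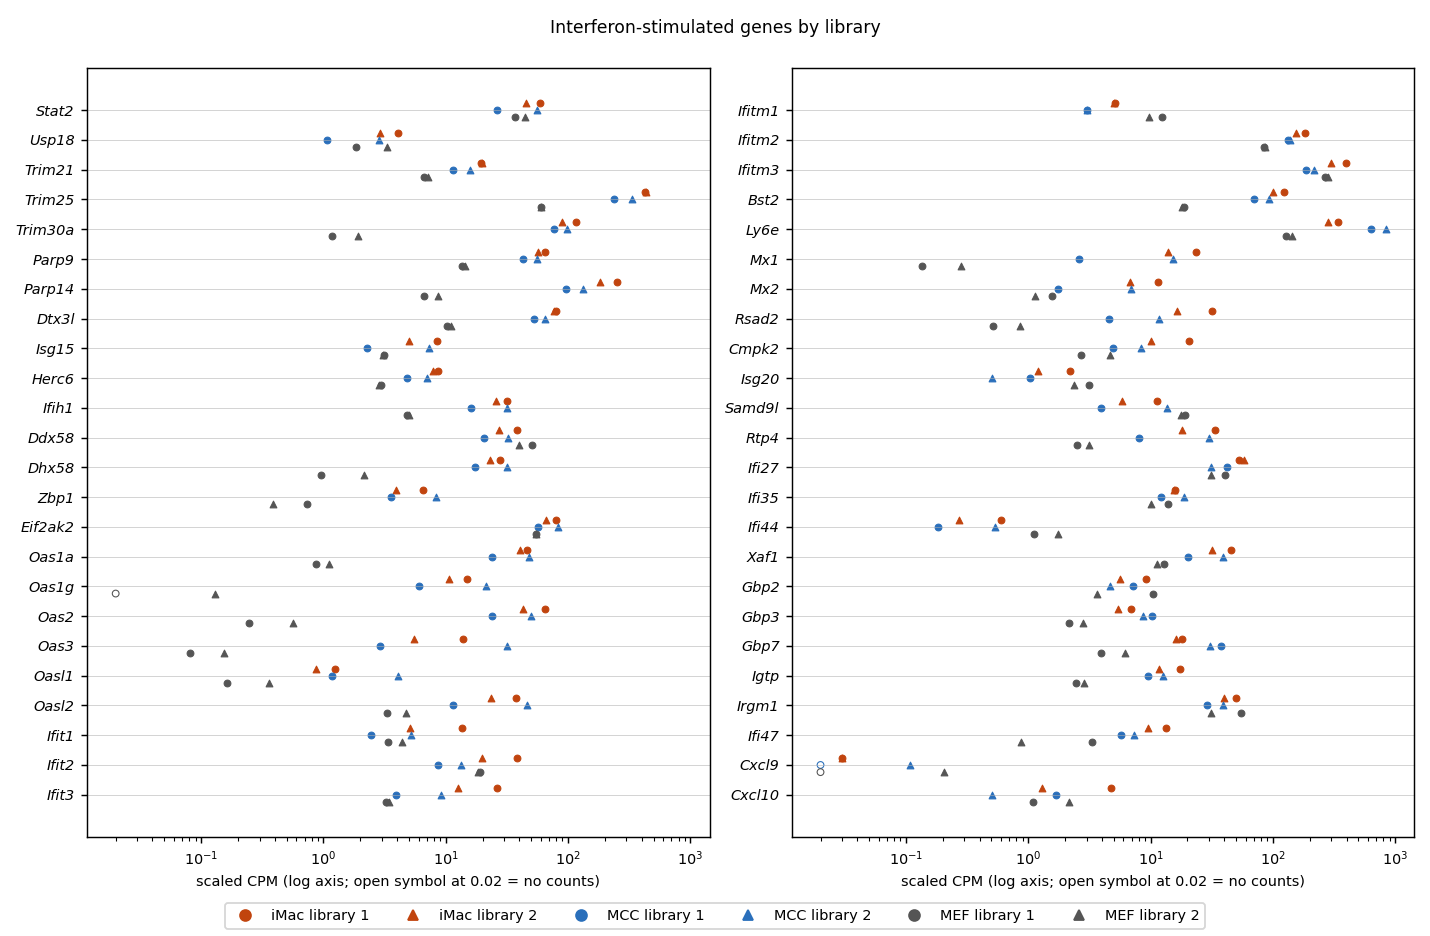
Scaled CPM of all 48 genes in the 6 libraries on a log axis, with iMac in orange, MCC in blue and MEF in grey, circles for library 1 and triangles for library 2, and open symbols at 0.02 for no counts. For Oas2, Trim30a and Mx1 every myeloid library lies above both MEF libraries, for Ifitm1 every one lies below, and for Oas3, Mx1 and Rtp4 the MCC circle lies well left of the MCC triangle.

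Levels of different genes were compared per length, as counts per kilobase of exon scaled to a sum of 1e6 in each library. In iMac the order was Ifitm3 at 1525 ± 266 (SD, n = 2 as in all these values), Ifitm2 at 773 ± 85.1, Bst2 at 368 ± 47.5, Ly6e at 246 ± 29.0, Trim25 at 222 ± 6.40 and Ifi27 at 114 ± 10.1. Ly6e and Trim25 were neighbours whose SDs overlap. In MCC it was Ifitm3 at 988 ± 99.5, Ifitm2 at 683 ± 9.47, Ly6e at 645 ± 124, Bst2 at 301 ± 56.1, Trim25 at 164 ± 37.6 and Ifi27 at 83.1 ± 18.0, with Ifitm2 and Ly6e apart by less than their spread. In MEF it was Ifitm3 at 1506 ± 177, Ifitm2 at 485 ± 38.9, Ly6e at 134 ± 21.03, Ifi27 at 90.2 ± 9.64, Bst2 at 75.4 ± 3.61 and Eif2ak2 at 39.5 ± 3.13. Ifitm3 thus had the highest mean per length in all 3 groups. The genes with the largest fold changes were not the most abundant ones. The length takes in every annotated exonic base of a gene, 3784 for Ly6e, 678 for Ifitm3 and 655 for Ifitm2. Before division by length, Ly6e had the highest mean of these 3 in MCC, at 736 CPM against 202 and 135 CPM. Its place below Ifitm3 and Ifitm2 there thus depends on the length used. Over all 47 tested genes the scaled CPM summed to 2891 and 2330 in iMac, 1971 and 2759 in MCC, and 971 and 966 in MEF, and 36 and 31 genes reached 10 CPM in iMac, 24 and 31 in MCC, and 18 and 16 in MEF.

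Between iMac and MCC no gene of the 47 was called in either direction, in a comparison in which only 4 of all 18613 genes (0.0215%) were. In this edgeR fit 13 of the 47 had an unadjusted p under 0.05, as had 18.2% of all genes tested. limma-voom called none of the 47 and 0.784% of all genes. DESeq2 called 8 of the 47 higher and 2 lower in iMac, beside 6.41% and 8.28% of all genes. Fitting the 2 groups alone called none higher and 2 lower, beside 4.36% and 4.24% of all genes. The fit to all 6 libraries uses a spread shared by the groups, but the groups differed in it. The chi-square per degree of freedom between the libraries of a group was 8.48 in iMac, 46.2 in MCC and 152 in MEF. The part of this in the few calls was not tested. Without MCC library 2 there was 1 called in each direction, beside 0.332% of all genes called higher and 5.71% called lower. The median log2 fold change was 0.40, beside -0.02 over all genes tested, and it became 0.17 when MCC library 1 was left out, 0.71 when MCC library 2 was and 0.19 when iMac library 1 was. Both iMac libraries were above both MCC libraries for 19 of the 47 genes and below them for 3, where 27.7% and 27.9% of all genes tested were so placed.

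The 3 genes lower in iMac were Ly6e, Gbp7 and Gbp3. Ly6e, with the values given above, had a log2 fold change of -1.24 ± 0.19 (edgeR adjusted p = 0.104), which DESeq2 called (-1.23, adjusted p = 3.26e-08), as did the fit of the 2 groups alone (-1.25, adjusted p = 0.0225) and the fit without MCC library 2 (-1.15, adjusted p = 0.0308). Gbp7 had -0.99 ± 0.26 (adjusted p = 0.184), called by DESeq2 (-0.98, adjusted p = 0.009) and with the 2 groups alone (-1.003, adjusted p = 0.0267). Gbp3 had -0.61 ± 0.26 (adjusted p = 0.292). On the other side, DESeq2 called Trim25, Parp14, Dtx3l, Ifit2, Ifit3, Ifitm1, Ifitm2 and Ifitm3 higher in iMac, by log2 fold changes from 0.34 for Ifitm2 to 1.58 for Ifit3. Trim25 was also called by edgeR without MCC library 2 (0.72, adjusted p = 0.0481).

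Between the MCC libraries most of these genes were higher in library 2. It was higher than library 1 for 40 of the 46 genes with at least 10 counts in both, against 53.0% of the 15156 genes so counted, and 17 were at least 2-fold higher, against 1.85%. The median log2 ratio of library 2 to library 1 was 0.64 (0.61 with median-ratio scaling), beside 0.02 over all those genes. These are single libraries, so no test applies. The largest ratios were those of Oas3 at 3.45, Mx1 at 2.55, Oasl2 at 2.03, Mx2 at 1.99, Rtp4 at 1.90 and Oas1g at 1.82. The other way stood Cxcl10 at -1.73, Isg20 at -1.03, Gbp2 at -0.61, Ifi27 at -0.42, Gbp7 at -0.32 and Gbp3 at -0.25, with Cxcl10 and Isg20 at least 2-fold lower in library 2, where 6.1% of all genes were.

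The iMac libraries differed by less and the other way. Library 2 was higher for 3 of 46 genes, against 47.9% of 14536 genes, and lower for 43, with a median log2 ratio of -0.48 beside -0.01, and 5 genes were at least 2-fold lower and none 2-fold higher, against 0.784% and 1.15%. Between the MEF libraries 25 of 42 genes were higher in library 2 (49.9% of 16804 genes), with a median of 0.09, and 1 gene was at least 2-fold higher and 2 at least 2-fold lower, against 6.62% and 4.09%. Replicate numbers are not said to link libraries of different groups.

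**Figure D3:**
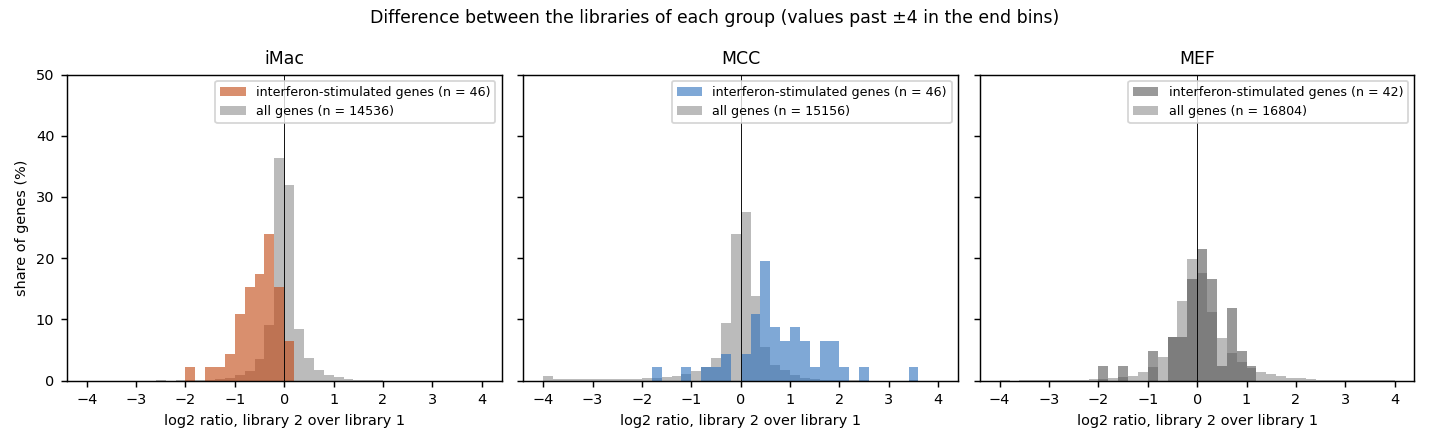
Share of genes by log2 ratio of library 2 to library 1 in iMac, MCC and MEF, for the interferon-stimulated genes in orange, blue and dark grey and for all genes with at least 10 counts in both libraries in light grey. The medians of the interferon-stimulated genes are -0.48 in iMac, 0.64 in MCC and 0.09 in MEF, and those of all genes lie within 0.02 of 0.

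Set one at a time against the other groups, MCC library 1 was below both iMac libraries for 41 of the 47 genes and above both for 3, where 40.1% and 42.8% of all genes tested were so placed. MCC library 2 was below both for 21 and above both for 14, where the shares of all genes were 37.6% and 39.6%. The 14 included 4 of 5 sensors, Ifih1, Dhx58, Zbp1 and Eif2ak2. They also included 5 of 6 genes of the synthetase family, Oas1a, Oas1g, Oas3, Oasl1 and Oasl2. Against MEF, MCC library 1 was above both libraries for 32 genes and below both for 12 (41.6% and 46.9% of all genes), and MCC library 2 for 35 and 8 (43.7% and 46.1%). Stat2, Isg15 and Ifit1 were among those below both MEF libraries in MCC library 1 and above both in MCC library 2.

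The difference between the MCC libraries varied in size between roles. Its median log2 ratio was 1.80 for the 6 genes of the synthetase family and 1.78 for the 7 other antiviral effectors. The median was 1.09 for the 3 IFIT genes and 0.86 for the 5 sensors. It was 0.45 for the 8 signalling genes, 0.23 for the 5 membrane proteins and 0.05 for the 6 GTPases. In iMac the medians were -0.57 for the synthetase family, -0.90 for the other effectors, -1.04 for the IFIT genes and -0.29 for the sensors. They were -0.28 for the signalling genes, -0.28 for the membrane proteins and -0.42 for the GTPases. A further list of interferon-stimulated genes outside the 48 had a median of 0.44 in MCC, with 38 of 46 higher in library 2, and of -0.24 in iMac, with 4 of 47 higher. Irf7, the factor that amplifies type I interferon production, had 2.09 in MCC and -0.70 in iMac. Beside this, the 20 macrophage genes had a median of 0.06 in MCC and -0.10 in iMac, and 18 collagen and fibroblast genes had -3.38 in MCC, all lower in library 2. The part of fibroblast RNA in the difference was not tested.

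**Figure D4:**
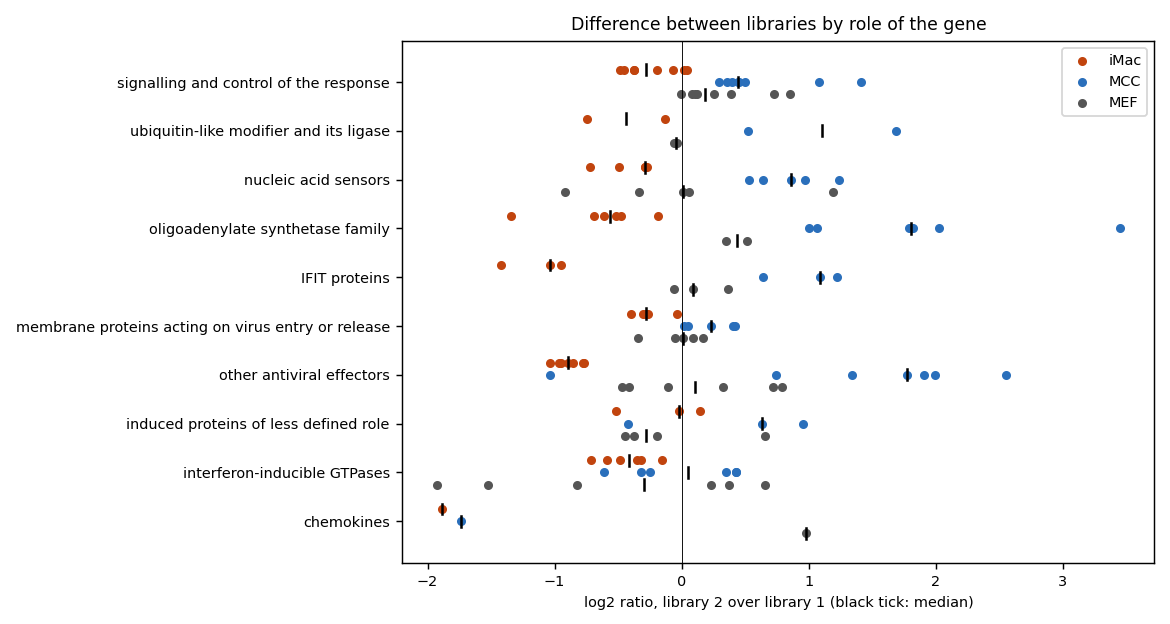
Log2 ratio of library 2 to library 1 for each interferon-stimulated gene with at least 10 counts in both libraries, by role, with iMac in orange above, MCC in blue in the middle and MEF in grey below, and the median as a black tick. The synthetase family reaches 3.45 in MCC (Oas3), and the GTPases in MCC lie between -0.61 and 0.43.

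The rest of the pathway was read from lists, whose counts stand beside the 25.1% of all genes tested that rose and 32.4% that fell in iMac and the 23.4% and 29.6% in MCC. Of interferon itself, 2 genes had rows, Ifna13 with 2 counts in MEF library 2 and Ifnk with 2 counts in iMac library 2 and 1 in MCC library 1. The other 19 genes listed had no row under those symbols. The lowest total of any row over the 6 libraries was 1 count. Of 6 receptor chains, Ifnar1, Ifnar2, Ifngr1, Ifngr2 and Il10rb rose in both iMac and MCC, and Ifnlr1, of the type III receptor, fell in iMac, where it had no count, a call that ended without any one of the iMac or MEF libraries (adjusted p from 0.086 to 0.0874). Ifnar1 stood at 208 and 205 CPM in iMac, 185 and 187 CPM in MCC, and 94.0 and 93.1 CPM in MEF, and Ifnar2 at 109 and 103 CPM in iMac, 91.9 and 106 CPM in MCC, and 28.1 and 26.6 CPM in MEF. All 4 myeloid libraries were above both MEF libraries for both chains.

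Of 11 kinases, Stat proteins and interferon regulatory factors, 8 rose and none fell in iMac (Tyk2, Irf1, Irf2, Irf3, Irf5, Irf7, Irf8 and Irf9). In MCC 7 rose, the same but for Irf9, and 1 fell, Jak2. In iMac Jak2 had a log2 fold change of -0.40 with no call (adjusted p = 0.0503). DESeq2 (0.00404), limma-voom (0.0422), median-ratio scaling (0.0325), unscaled totals (0.0386) and only the 2 groups (0.0398) called it lower there. The replicate block (0.0822), no filter (0.102) and at least 5 CPM in 2 libraries (0.0511) did not. Irf7 stood at 25.02 and 15.4 CPM in iMac, 7.13 and 30.2 CPM in MCC, and 3.66 and 4.30 CPM in MEF (log2 fold change 2.34 ± 0.72 in iMac and 2.23 ± 0.72 in MCC, adjusted p = 0.0397 and 0.0487). Leaving out MCC library 2 gave Irf7 0.96 in MCC, and leaving out MCC library 1 gave 2.94. Without any one of the iMac or MEF libraries both Irf7 calls ended (adjusted p from 0.0828 to 0.175), as they did under limma-voom (0.0689 in iMac and 0.124 in MCC) and with replicate number as a block (0.0537 in iMac and 0.082 in MCC). The MCC call of Irf7 also ended without MCC library 2 (0.0869), with only the 2 groups (0.078) and with median-ratio scaling (0.0521). The iMac call of Irf9 ended without iMac library 1 (0.0837) or MEF library 2 (0.0509), and the MCC call of Jak2 (-0.43, adjusted p = 0.0441) ended without any one library, with the block (0.0724), with no filter (0.0844), on unscaled totals (0.0824) and with only the 2 groups (0.149). Irf8, a macrophage lineage factor, stood at 365 and 342 CPM in iMac, 184 and 237 CPM in MCC, and 0.244 and 0.258 CPM in MEF.

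Upstream, of 11 genes that sense nucleic acids or carry that signal, 8 rose in both groups (Cgas, Sting1, Mavs, Tbk1, Ikbke, Tlr7, Tlr9 and Myd88) and Traf3 fell in both. Tlr7, the endosomal receptor for single-stranded RNA, stood at 403 and 356 CPM in iMac, 200 and 182 CPM in MCC, and 0.190 and 0.464 CPM in MEF. Of 7 negative regulators other than Usp18, Ptpn1, Ptpn6 and Pias1 rose in both groups and Socs1 and Ptpn11 fell in both. Socs1, which blocks the receptor's kinases and is itself interferon-induced, stood at 0.567 and 0.543 CPM in iMac, 1.07 and 0.910 CPM in MCC, and 5.64 and 5.62 CPM in MEF (log2 fold change -3.33 ± 0.29 in iMac and -2.51 ± 0.27 in MCC, adjusted p = 0.0011 and 0.00247).

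Of 52 tested interferon-stimulated genes outside the 48, 35 rose and 4 fell in iMac, beside 25.1% and 32.4% of all genes tested, and 31 rose and 5 fell in MCC, beside 23.4% and 29.6%. The log2 fold change over these 52 had medians of 1.69 in iMac and 1.49 in MCC, and none was called between iMac and MCC. Irf7 and Irf9 are counted in this list as well. Ifi27l2a, a relative of Ifi27, stood at 108 and 78.0 CPM in iMac, 66.7 and 77.4 CPM in MCC, and 0.569 and 0.567 CPM in MEF. Ly6a, a surface protein known also from fibroblasts, fell, at 2.15 and 1.51 CPM in iMac, 18.6 and 10.03 CPM in MCC, and 211 and 201 CPM in MEF. Their promoters held the response element core for 23 of 42 (54.8%).

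The genes with and without the core in the promoter were set side by side, and the difference was not tested. Of 22 with a match, 13 rose in iMac and 12 in MCC, and the medians of the log2 fold change were 1.4 and 0.96. Of 14 tested genes with a promoter and no match, 7 rose in iMac and 6 in MCC, with medians of 1.59 and 0.95. The median ratio between the MCC libraries was 0.50 with a match and 0.63 without. Isg15, Ifit1, Stat2, Cxcl10, Gbp2 and Irgm1 had a match before the start and no call. Trim25, Dtx3l, Herc6, Oasl2 and Xaf1 rose in both groups with none in these 300 bases.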

How the data were processed

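The deposited table holds whole-number counts of reads per gene for 6 libraries. Per the submitters' processing notes, the authors used STAR, the mm10 genome and featureCounts, and versions, annotation and strand setting were not given in the sources used here. RNA was extracted with Trizol and made into libraries with a kit for mRNA, per the labels' protocols. Totals ran from 34389817 to 39174367 counts. Columns of other samples numbered 0.

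Counts were tested as deposited with edgeR 4.0.16 in R 4.3.3: filterByExpr (18613 genes kept, 11832 removed), TMM scaling and the quasi-likelihood test, two-sided, fitted to all 6 libraries with no term but group, 3 residual degrees of freedom and a prior count of 0.125. P-values were adjusted by Benjamini-Hochberg over all genes tested, at 0.05. Each standard error is the absolute fold change over the root of F. Alternatives were DESeq2 1.42.0, limma-voom (limma 3.58.1), median-ratio scaling, no filter, at least 5 CPM in 2 libraries, only the groups compared, a replicate block and leaving out each library, where a lone library is assumed to vary like the others. Unscaled library totals were added after seeing the data. Levels per length used exon lengths of the mouse GENCODE release M21 on GRCm38, the assembly of mm10, in which 29519 symbols matched 1 gene. Promoters came from RefSeq on GRCm38.p6. The pipeline was run on simulated data in which few genes changed and all groups had the same spread, unlike these data. Its outcome is not given here.

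The 48 genes, the roles and the other lists were chosen with earlier results of these data known. Besides the genes of these lists, 1 gene of the pathway is not reported here. Values in every library are given for the 6 called genes with the largest fold changes per comparison, the 6 highest per length in each group, the 6 that differed most between the MCC libraries and the called genes that moved against the majority; further genes were picked within their role after their values were seen. Genes of the OAS, IFIT, IFITM, GBP and Mx families have close copies, and the sources do not say how reads that fit several were counted.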

Additional observations from a re-analysis of the deposited data

How the results depend on the processing

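With replicate number as a block 9022 genes changed in MCC against MEF, of which 25 were interferon-stimulated genes that rose and 2 that fell, 9908 in iMac against MEF, with 30 and 1, and none in iMac against MCC. Across all genes tested, the deviation of library 1 from its group's mean log2 CPM was compared between groups. These deviations correlated at 0.189 for MCC and MEF, 0.01 for iMac and MEF and 0.029 for iMac and MCC. The labels do not say that numbers pair libraries. The block ended the MCC call of Xaf1 and no other call of these genes over MEF.

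The number of interferon-stimulated genes that fell in MCC was 2, and it was 5 by DESeq2, 3 by limma-voom and by median-ratio scaling, and 1 with at least 5 CPM in 2 libraries or with only the 2 groups. The number that fell in iMac was 1, and 3 with only the 2 groups. In iMac against MCC 4 of all genes changed, and 2734 by DESeq2, 146 by limma-voom, 89 with no filter, 1364 with only the 2 groups, 3 on unscaled totals and 0 with the block; interferon-stimulated genes numbered 8 higher by DESeq2, and 2 lower by DESeq2 and with only the 2 groups. Unscaled totals gave a median over all genes of -0.16 there, beside -0.02. The cause was not tested.

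Leaving out 1 library at a time, the genes changed in MCC against MEF numbered 7194 to 8672, with 18 to 29 of these genes higher, 1 to 4 lower and a median of 0.87 to 1.80. In iMac against MEF they numbered 5173 to 10695, with 18 to 32 higher, 0 to 2 lower and a median of 1.54 to 1.94. In iMac against MCC they numbered 0 to 1202, with 0 to 1 higher, 0 to 1 lower and a median of 0.17 to 0.71. Signs turned for no called gene. Among uncalled values past 1 SE of 0 they turned in 5 cases: Isg15 in MCC (-0.30 to 1.27), Irgm1 in MCC (-0.66 to 0.13), Cxcl10 in iMac (-0.30 to 1.58), and Ddx58 (-0.003 to 0.53) and Xaf1 (-0.029 to 0.82) between iMac and MCC. Among values within 1 SE of 0, of which no direction is given here, they turned in 23 further cases over the 3 comparisons. Where MEF was below about 1 CPM, as for Oas1g and Oas3, the fold change is less certain than the direction. The part of depth in this was not tested.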
